A study of Saccharomyces cerevisiae with 4 samples.

Results

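Chromosome III arms were taken as the bins with coordinates 20000 to 94000 on the left of the centromere and 134500 to 296600 on the right, which leaves out 20 kb at each end and the pericentromere. They hold 4722 of the 243150 bins of the profile (1480 on the left and 3242 on the right, 236.1 kb in all) and 6 of the 392 origins in the study's origin table. These origins are ARS304, ARS305 and ARS306 on the left arm, and ARS310, ARS315 and ARS316 on the right arm. The right arm also holds MAT and, at its outer edge, HMR.

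The data are BrdU-IP-Seq profiles of 2 groups of Saccharomyces cerevisiae, WT and rif1Δ, with 2 libraries each. BrdU, taken up in place of thymidine, labels new DNA, and hydroxyurea (HU) slows forks so that label stays near the origins that fired. Both groups were arrested for 4 h by 7.5 nM α-factor, freed from it by 200 µg/mL pronase, and kept at 23 °C in HU for 45 min with 400 µg/mL BrdU (the labels give an HU dose of 0.2, with no unit). The strains derive from W303 and share MATa, trp1-1, ade2-1, can1-100, ura3-1, his3-11,15, bar1Δ::hisG, and the BrdU-Inc cassette at LEU2, which lets the cells use BrdU. In the rif1Δ strain the RIF1 gene was replaced by KanMx.

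Each yeast origin is built around an ARS element that the origin recognition complex binds, and some origins fire early in S-phase and others late. Early origins fire in HU, whereas the intra-S checkpoint holds back those not yet fired. Rif1 was first known as a partner of the telomere protein Rap1. Chromosome III carries the mating-type genes: the active copy lies at MAT, and silent copies lie at HML and HMR near the ends, flanked by silencers that contain ARS elements.

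Only 1 column per strain is used here, the authors' mean of 2 replicates, so differences between WT and rif1Δ have no replicate check and no test was run. The values are smoothed signal in 50 bp bins, and the reads behind each are unknown. Signal at a position reflects how many cells labelled it and how much each incorporated, which cannot be told apart in bulk cells. Over the deleted gene, RIF1 (YBR275C, 751356 to 757106 of chromosome II, R64), WT averaged 3.08 and rif1Δ 0.436. Mean signal over all nuclear bins was 12.6 in WT and 12.1 in rif1Δ. Over 1 kb windows at least 10 kb from any listed origin, the 99th percentile was 13.5 in each strain, and signal above it is called above threshold.

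The arms as a whole were dominated by 4 tall peaks present in both strains, at ARS305, ARS306, ARS310 and ARS315, with shoulders that were lower in rif1Δ. The outermost listed origin of each arm, ARS304 on the left and ARS316 on the right, carried a small peak in WT or none above threshold, and was 2.74-fold and 3.01-fold higher in rif1Δ. Between the peaks the signal was low in both strains, with a median outside peaks of 3.625 in WT and 3.25 in rif1Δ. A further rise in rif1Δ lay over HMR, where no origin is listed.

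**Figure D1:**
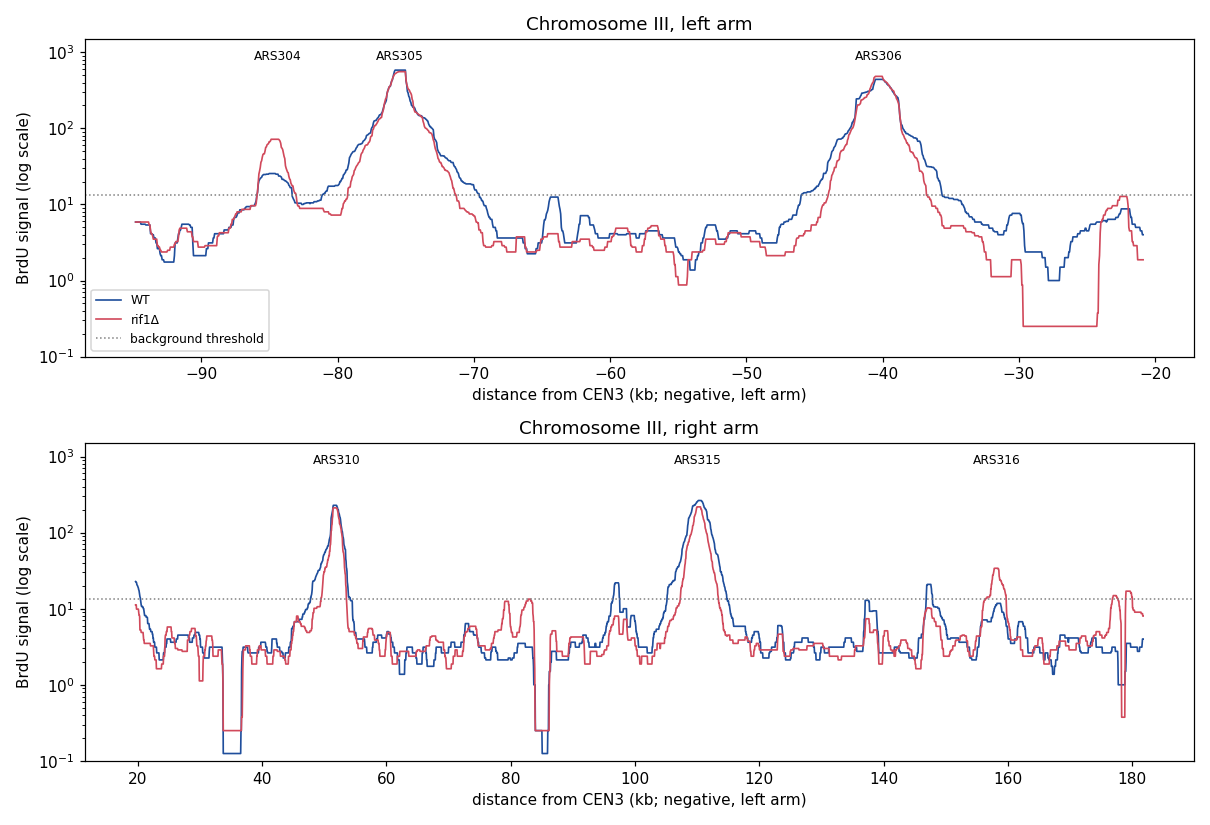
BrdU signal (log scale) in 50 bp bins along the left arm (top) and the right arm (bottom) against distance from CEN3 in kb, WT in blue and rif1Δ in red, with the background threshold of 13.5 dotted. The 4 tall peaks are present in both strains with lower shoulders in rif1Δ, while ARS304, ARS316 and the end of the right arm are higher in rif1Δ.

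ARS304 lies at 30199 to 30657 of chromosome III (R64), between KAR4, a transcription factor gene of the mating response, and RDT1, and is 30.4 kb from the left end. The study's table classes it as repressed by Rif1. Its signal, the mean within 500 bp of the midpoint of the listed interval, was 24 in WT and 65.9 in rif1Δ, a difference of 1.42 in log2((rif1Δ + 1)/(WT + 1)). Among the 392 listed origins it ranked 205 in WT and 199 in rif1Δ, so its place changed little although its level rose 2.74-fold. The peak was 25.5 high in WT and 71.9 high in rif1Δ, and above threshold over 2.55 kb and 2.85 kb. On the telomere side of the peak, over KAR4, the strains were close, with means of 9.65 in WT and 9.28 in rif1Δ.

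ARS316 lies at 272844 to 273088 between YCR090C and KIN82, a protein kinase gene, 43.7 kb from the right end, and is also classed as repressed. It was the only listed origin of these arms that did not pass the threshold in WT, at 10.9, and it reached 32.8 in rif1Δ (log2 difference 1.51). In rif1Δ a run above threshold extended over 3.35 kb, from 271201 to 274550, with a maximum of 34.0. In WT the highest bin there was 11.75. Its rank among all listed origins was 272 in WT and 276 in rif1Δ.

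Both repressed origins changed less than most of their class. By log2 difference ARS316 ranked 136 and ARS304 ranked 142 of 174 repressed origins, counted from the largest. Over the 143 repressed origins on the arms of all 16 chromosomes, WT had a median of 8.26 and rif1Δ of 50.2, and the median log2 difference was 2.34. In rif1Δ, 91 of these 143 had a lower signal than ARS304 and 42 a lower signal than ARS316. The authors made these classes with the same libraries, so these values describe the classes and do not test them.

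ARS305, at 39158 to 39706 between APA1, which encodes a dinucleotide phosphorylase, and YCL049C, is an early origin long used in studies of replication and is classed as unregulated. Its signal of 559.8 in WT and 530.7 in rif1Δ ranked 3 and 2 among the 392 listed origins (log2 difference -0.077). The midpoint of ARS304 lies 9 kb away on the telomere side, the closest spacing of listed origins involving these arms. In this pair the origin nearer the end was 2.74-fold higher in rif1Δ and its neighbor was 0.948 times its WT level.

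ARS306, at 74457 to 74677 between HBN1 and FRM2, a pair of nitroreductase-like genes, is the second unregulated origin. Its signal was 418 in WT and 458 in rif1Δ (log2 difference 0.13), and its rank rose from 23 to 9. When averaged over 2500 bp to each side in place of 500 bp, its log2 difference was -0.035, so the direction depends on the window. The wider window takes in the flanks, which were lower in rif1Δ.

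ARS310 and ARS315 are classed as activated by Rif1, that is, lower in rif1Δ. ARS310, at 166494 to 167340 between NPP1, a nucleotide pyrophosphatase gene, and RHB1, a Rheb-type GTPase gene, had 209 in WT and 189 in rif1Δ (log2 difference -0.15). Its highest bin lay 0.342 kb to the left of the midpoint of the listed interval in both strains. ARS315, at 224807 to 225053 between TAH1, which encodes an HSP90 cofactor, and TVS1, had 254 in WT and 207 in rif1Δ (log2 difference -0.30). Over 2500 bp to each side the log2 difference was -0.35 at ARS310 and -0.64 at ARS315. Within 500 bp of the midpoint, both lay at the weak end of their class, ranking 10 and 17 of 81 activated origins counted from the highest log2 difference. Over the 55 activated origins on all arms the median log2 difference was -0.98, with a median signal of 118 in WT and 47.3 in rif1Δ.

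**Figure D2:**
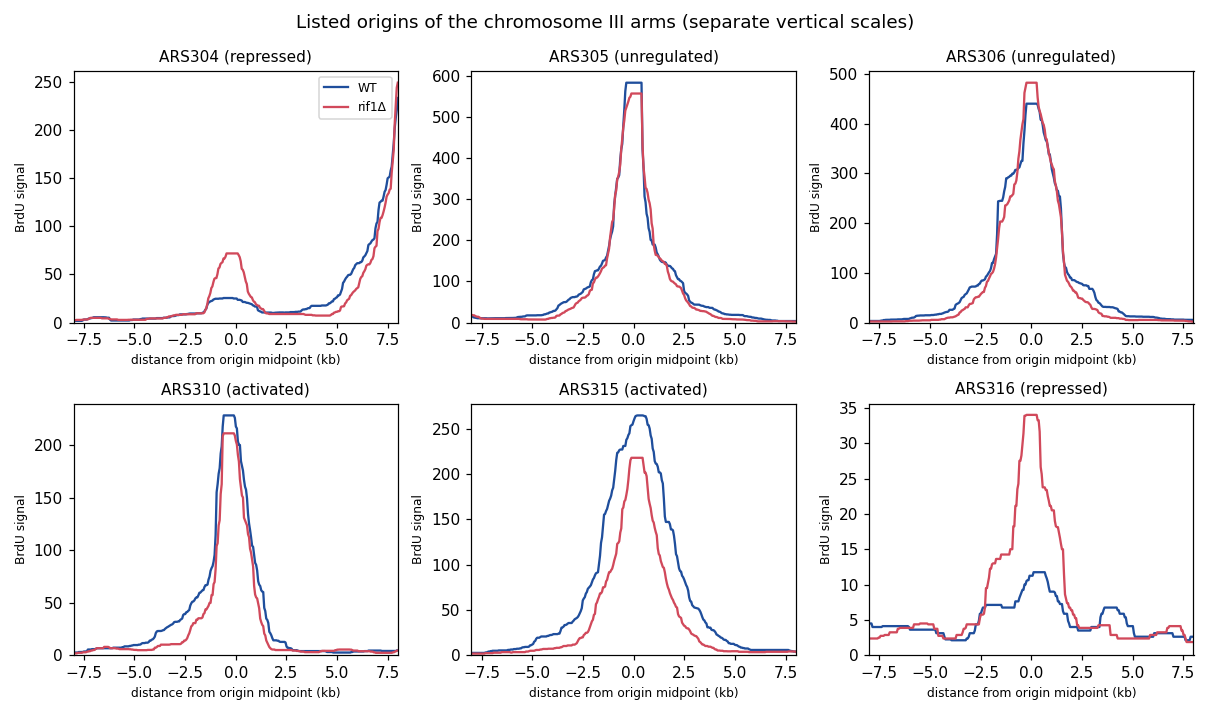
BrdU signal in 50 bp bins within 8 kb of the midpoint of each of the 6 listed origins, with separate vertical scales, WT in blue and rif1Δ in red. ARS304 and ARS316 are higher in rif1Δ over their whole peak, ARS305 and ARS306 nearly coincide at the top, and ARS310 and ARS315 are lower and narrower in rif1Δ, with ARS315 3500 bp wide at 50% of its height in WT and 2200 bp in rif1Δ.

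Of the 6 listed origins, 2 were at least 2-fold higher in rif1Δ, where 41.8% of all 392 listed origins were, and 0 were at least 2-fold lower, where 8.93% were. The 2-fold call of ARS304 depended on the window: averaged over 2500 bp to each side, its log2 difference was 0.83 and that of ARS316 1.09. By any amount, 3 of 6 were higher, beside 65.6% of all. The threshold was passed by 5 of 6 in WT (64% of all) and by 6 of 6 in rif1Δ (90.8% of all). The median log2 difference over the 6 was 0.028, beside 0.71 over 314 listed origins on the arms of all 16 chromosomes.

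Chromosomes I and VI, the other short chromosomes, are set beside it. On the arms of chromosome I, 3 of 5 listed origins were repressed and 3 were at least 2-fold higher in rif1Δ, with a median log2 difference of 1.28. The chromosome VI arms held 8 listed origins, of which 5 were repressed and 5 at least 2-fold higher, with a median of 3.10. Mean signal over the bins of the chromosome III arms was 23.1 in WT and 19.6 in rif1Δ, a ratio of 0.851. The ratio was 1.19 for the arms of chromosome I, 1.24 for those of chromosome VI and 0.997 for all arms. With 1 column per strain these differences between chromosomes were not tested.

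**Figure D3:**
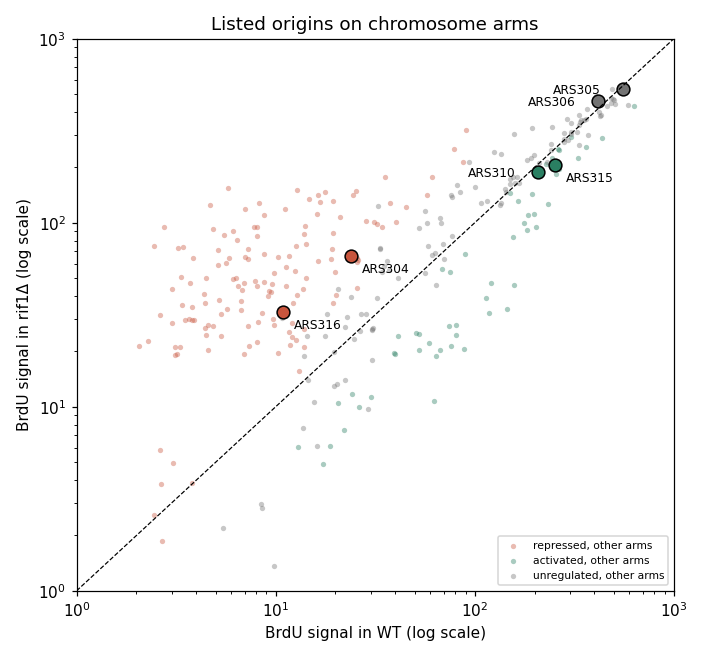
Signal of listed origins on chromosome arms in WT (horizontal, log scale) and rif1Δ (vertical, log scale), with the line of equal signal dashed. Small points are origins of the other chromosomes colored by class, and large points are the 6 of chromosome III, of which ARS304 and ARS316 lie above the line and the other 4 close to it.

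Peak by peak, runs of bins above threshold at least 1 kb long were called separately in each strain. There were 7 in WT and 7 in rif1Δ, which made 9 places in all, 5 of them called in both strains. A listed origin lay in 6 of the 9. These runs covered 42.45 kb of the arms in WT and 32.65 kb in rif1Δ and held 84.6% and 82.2% of the signal. Within 5 kb of the 4 tall origins alone lay 82.8% of the arm signal in WT and 79.7% in rif1Δ. The share fell at ARS315 from 19.1% to 13.3% and at ARS310 from 10.4% to 9.12%. It was higher in rif1Δ at the other origins: ARS304 held 2.49% in WT and 3.98% in rif1Δ, ARS316 1.09% and 2.29%, ARS305 26.7% and 28.8%, and ARS306 26.6% and 28.4%. At ARS305 and ARS306 the mean over the same 10 kb was nevertheless lower in rif1Δ, at 145.6 in WT and 133.6 in rif1Δ for ARS305 and 144.9 and 131.9 for ARS306. The stretches of ARS304 and ARS305 overlap, as their midpoints lie 9 kb apart, so the ARS304 share includes some of the ARS305 shoulder.

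The runs at the tall origins were all shorter in rif1Δ. At ARS305 the run was 11.5 kb in WT and 7.95 kb in rif1Δ. At ARS306 it was 10.3 kb and 7.2 kb, at ARS310 6.4 kb and 4.1 kb, and at ARS315 9.6 kb and 6.1 kb. In WT the tail of ARS309, a listed origin of the pericentromere, reached 800 bp into the right arm, with a highest value there of 22.75.

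At 3 kb from the highest bin, WT held 17.4% of the peak height at ARS315 and rif1Δ 7.40%. ARS306 had 15.8% and 6.72%, ARS310 7.42% and 3.58%, and ARS305 9.05% and 6.92%. The direction was shared by every tall, isolated listed origin of the genome: among 123 with a signal of at least 50 in both strains and no other within 5 kb, 100% had a lower share in rif1Δ, with medians of 10.1% in WT and 4.82% in rif1Δ. ARS305 differed from the others of chromosome III closer in. At 1 kb it had 36.3% in WT and 43.5% in rif1Δ, whereas ARS306 had 68.6% and 59.2%, ARS310 43.2% and 37.7%, and ARS315 80.9% and 56.1%.

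Widths at 50% of the height were smaller in rif1Δ at 3 of the 4 tall origins. ARS315 was 3500 bp wide in WT and 2200 bp in rif1Δ, ARS306 3150 bp and 2500 bp, and ARS310 1750 bp and 1600 bp. ARS305 was the exception, at 1550 bp in WT and 1750 bp in rif1Δ. At 25% of the height its difference turned from 200 bp wider to 100 bp narrower in rif1Δ. Of the 123 tall isolated origins, 87% were narrower in rif1Δ, with median widths of 2000 bp in WT and 1600 bp in rif1Δ. The profiles were smoothed over 1 kb, which flattens the top of a narrow peak into a plateau, as at ARS305 and ARS310.

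**Figure D4:**
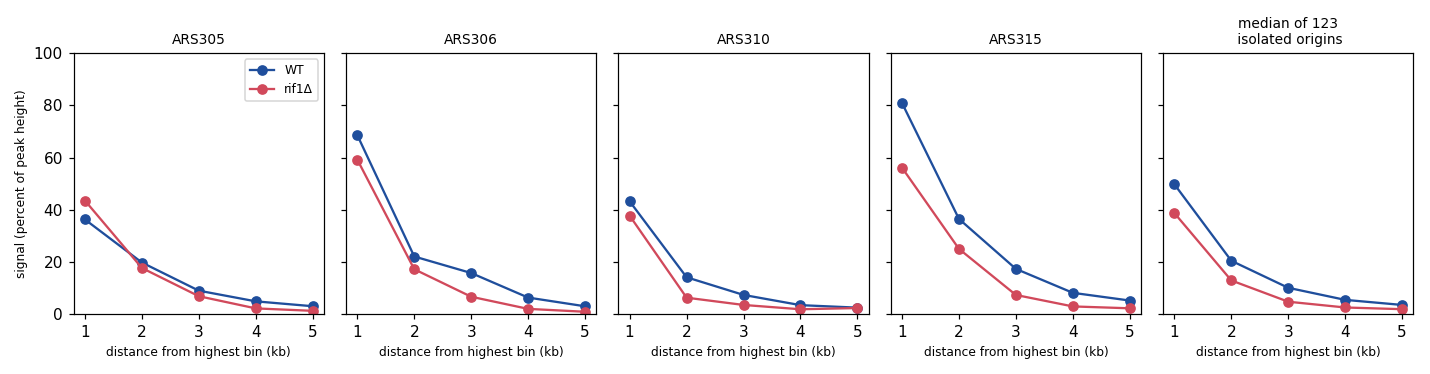
Signal at 1 to 5 kb from the highest bin of each tall origin, as a percent of the peak height (mean of both sides), for ARS305, ARS306, ARS310, ARS315 and, in the last panel, the median of 123 tall isolated origins, WT in blue and rif1Δ in red. From 2 to 4 kb the rif1Δ points lie under the WT points in every panel, and at 1 kb ARS305 is the exception.

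Runs at 3 places held no listed origin. In WT a run from 211301 to 212400, between BUD23, which encodes an rRNA methyltransferase, and ARE1, a sterol acyltransferase gene, reached 21.9, while rif1Δ reached 8 there. The mean over the run was 19.6 in WT and 7.34 in rif1Δ (log2 difference -1.30), 13 kb from ARS315. A second WT run, from 261701 to 262700 over TUP1, a general corepressor of transcription, reached 20.9 in WT and 10.25 in rif1Δ, 10.8 kb from ARS316. Its mean was 19.6 in WT and 9.80 in rif1Δ (log2 difference -0.93). The third run was found only in rif1Δ, over HMRA1. All 3 runs were low and short: their means were 19.6, 19.6 and, over HMRA1 in rif1Δ, 16.4, beside a threshold of 13.5, and their lengths were 1.1 kb, 1 kb and 1.1 kb, where the shortest run counted was 1 kb.

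HMR (292001 to 296600, 92 bins) averaged 2.57 in WT and 10.3 in rif1Δ, 4.02-fold higher (log2 difference 1.67). The rise had several steps. From 291000 to 293079, left of HMRA2, rif1Δ reached 14.9 and WT 3.13, with means of 11.3 and 2.35 (log2 difference 1.88). That run above threshold was shorter than 1 kb and was not counted as a peak. Over HMRA2 (YCR096C, 293179 to 293538) the signal dropped to 0.375 in rif1Δ and 1.00 in WT. It was highest over HMRA1 (YCR097W, 293835 to 294321), at 17 in rif1Δ and 3.36 in WT (log2 difference 2.04). Farther right, up to the edge of the arm, it stayed at a mean of 9.18 in rif1Δ and 3.14 in WT.

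These levels are low beside those of listed origins. The maximum of 17 over HMRA1 was above the rif1Δ signal of 7 of the 143 repressed origins on arms, and that of 14.9 left of HMRA2 above 6. These maxima are highest bins, whereas the origin signals are means within 500 bp of a midpoint. Left of HMRA2 the rif1Δ mean was 11.3. HMRA1 encodes the a1 factor. In a MATa strain the same sequence lies at MAT and at HMR, whereas the reference genome, which is MATα, holds it only at HMR. Reads of both loci would be placed at HMRA1, so their shares of the signal there cannot be told apart. The bins left of HMRA2 lie outside the a1 gene, and over those from 292001 on the log2 difference was 2.08, in a comparison added after seeing the data. The HMRA2 coding sequence is shared with MAT and HML. How far the sharing extends into the bins left of HMRA2, and whether it sets the dip, was not tested.

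At MAT, the genes MATALPHA2 and MATALPHA1 of the reference (199546 to 200969) had almost no signal, with a mean of 0.200 in WT and 0.25 in rif1Δ. The strains are MATa, so both genes occur whole in them at HML, while the part of MATALPHA2 shared with HMRA2 also lies at MAT and HMR. The signal over these genes therefore cannot be read as labelling of the MAT locus. Values of at most 1 extended from 198551 to 201050 in WT and from 198751 to 201100 in rif1Δ. To the left of this gap were 2 low maxima in rif1Δ that WT lacked. Over RBK1, a ribokinase gene, rif1Δ reached 12.5, while WT did not exceed 2.25 around it. Over BUD5, which encodes an exchange factor of bud-site selection, rif1Δ reached 13.4 and WT 3.13. These tops lie 5.35 kb and 1.70 kb from MATALPHA2.

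Both maxima lay just under the threshold, above 98.7% and 99% of background windows in rif1Δ, and were chosen after their values were seen. They are highest bins set against means of 1 kb windows. The rif1Δ means of the stretches holding them were above 97.0% and 97.3% of background windows. The windows of these stretches lie more than 10 kb from any listed origin, so they are themselves among the background windows. The highest background window in rif1Δ reached 227. Averaged over genes, RBK1 had 2.13 in WT and 9.52 in rif1Δ, BUD5 1.66 and 6.39, and PHO87, a phosphate transporter gene between them, 2.87 and 6.83. On the other side TAF2, a TFIID subunit gene, had 2.59 and 3.54. In the 10 kb segment from 194.5 to 204.5 kb, 84.5% of bins were higher in rif1Δ. The share was 35.4% over the chromosome III arms and 48.9% over the arms of all 16 chromosomes.

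**Figure D5:**
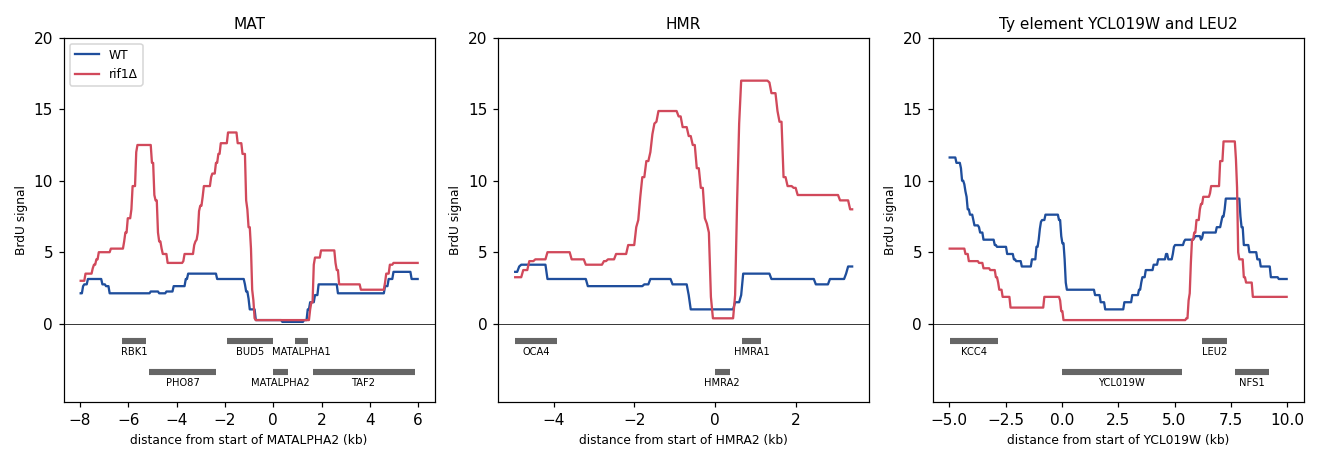
BrdU signal around MAT, HMR and the Ty element next to LEU2, each against distance in kb from a gene start, on 1 common vertical scale, WT in blue and rif1Δ in red, with genes as bars. At MAT and HMR rif1Δ reaches 13.4 and 17 beside gaps of almost no signal, and over YCL019W rif1Δ lies near 0.256 where WT averages 2.82.

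The end of the right arm was higher in rif1Δ over a longer stretch. Over its last 30 kb the mean was 3.98 in WT and 7.17 in rif1Δ, a ratio of 1.80, and 69.5% of bins were higher in rif1Δ. The gain lay at ARS316 and at HMR: the segment from 274.5 to 284.5 kb between them had 3.60 in WT and 3.45 in rif1Δ, and CDC39, a CCR4-NOT scaffold gene, 3.22 and 3.04. On the left arm 23.8% of bins were higher in rif1Δ, and on the whole right arm 40.7%. The share was 48.9% over the arms of all 16 chromosomes.

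In windows of 1 kb, 13 of 237 (5.49%) were at least 2-fold higher in rif1Δ, beside 6.23% of all nuclear windows and 5.55% of the windows on all arms. They fell in 5 blocks: at ARS304 (29 to 31 kb), over RBK1 (193 to 195 kb), over BUD5 (197 to 199 kb), at ARS316 (272 to 274 kb) and at HMR (291 to 296 kb). Of these 13, 8 were under the threshold in both strains. At least 2-fold lower were 30 windows (12.7%), beside 7.78% of all nuclear windows and 6.07% on all arms. They fell in 13 blocks, several of them on the shoulders of the tall origins. The pair from 34 to 36 kb and the pair from 44 to 46 kb, for example, lay on either side of ARS305, with means of 24.4 and 14.6 in WT and 10.6 and 5.86 in rif1Δ. Of the 30, 14 were under the threshold in both strains.

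A stretch of low signal in rif1Δ lay over YCL019W (85102 to 90415), a Ty retrotransposon open reading frame. Its mean was 2.82 in WT and 0.256 in rif1Δ (log2 difference -1.60). Values of at most 1 ran from 85051 to 90700 in rif1Δ and only from 87001 to 87850 in WT. Ty elements occur in many copies, and how reads with several matches were placed is not given in the sources used here. The effect of that placement on this difference was not tested. Leaving out the windows over the element and beside it left 23 windows at least 2-fold lower and 13 at least 2-fold higher. Those left out include the whole lower block from 83 to 87 kb, which starts to the left of the element.

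Beside the element, LEU2 (91324 to 92418), the site of BrdU-Inc in both strains, had 6.83 in WT and 10.1 in rif1Δ (log2 difference 0.51), and NFS1, a cysteine desulfurase gene, 5.57 and 3.50. The highest bin there was 8.75 in WT and 12.75 in rif1Δ, under the threshold. Another stretch with values of at most 1 was shared by both strains, from 148551 to 151550 in WT and from 148601 to 151750 in rif1Δ, at SRD1 and the tRNA genes YNCC0008W and YNCC0009C. Values of at most 1 made up 3.16% of the arm bins in WT and 5.23% in rif1Δ, beside 3.58% and 5.46% of all nuclear bins.

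The longest stretch without a listed origin, 58.0 kb between ARS310 and ARS315, includes MAT. More than 10 kb from either origin its median was 3.125 in WT and 3.50 in rif1Δ. Between ARS305 and ARS306 the median was 4.125 and 3.25, and between ARS315 and ARS316 it was 3.125 and 3. Beyond ARS316, toward the right end, it was 3.125 in WT and 4.375 in rif1Δ. There 70% of bins were higher in rif1Δ, beside 48.9% over the arms of all 16 chromosomes.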

How the data were processed

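Per the labels and the study's methods, BrdU-IP-Seq libraries of WT and rif1Δ cells were aligned by the authors with Bowtie2 to R64 and binned with bedtools. The deposited signal is coverage in 50 bp bins that the authors smoothed by median over 1 kb and quantile-normalized between replicates. They then averaged 2 replicates and smoothed the result again, giving 1 column per strain. The scaling between strains and the depth per library are not given in the sources used here, so no error or test could be had. Smoothing lowers narrow peaks and blurs neighbors.

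Origin names, intervals and classes came from the study's origin table, and gene names from the RefSeq R64 table. Origin signal was the mean of bins within 500 bp of the interval's midpoint. A pseudocount of 1 was added before taking log2, which understates changes of low values. The threshold was the 99th percentile of 5554 background windows of 1 kb. Runs above it with gaps up to 500 bp joined, at least 1 kb long and with their highest bin in the arms, were called peaks. The origins named are all 6 listed ones; genes are those beside origins, peaks, MAT and HMR. Members and lists were chosen with earlier results of these data known. Python 3.11.15, numpy 2.4.6 and pandas 2.3.3 were used, and the measures were tested on simulated data.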

Additional observations from a re-analysis of the deposited data

How the results depend on the processing

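No paired analysis was possible because each strain has 1 averaged column, and leaving out a replicate was not possible for the same reason. Of 60 alternatives for counts and regions, 45 differed little from the reported value (counts within 1.5 times, ratios within 1 SD of the bins) and 15 moved. With the highest background window as threshold (228 in WT, 227 in rif1Δ), peaks numbered 3 in WT and 2 in rif1Δ, and listed origins above it 3 and 2. With the 95th percentile (6.67 and 6.76), rif1Δ had 11 peaks. Windows at least 2-fold higher numbered 1 with a pseudocount of 10 and 3 in windows of 5 kb, and those lower 4 and 2. At 1.5-fold, 23 were higher and 59 lower. The log2 difference over HMR was 2.95 after subtraction of the background median and 0.69 with a pseudocount of 10. Over the MATALPHA genes of the reference at MAT it was 0.059. It moved to 0.22 with a pseudocount of 0.1 and to 0.50 with 1 kb added to each side. Leaving out bins of at most 1 left none there. ARS306 turned to -0.035 over 2500 bp to each side, and the width difference of ARS305 to -100 bp at 25% of the height. Of 48 alternatives for the log2 difference of single origins, 39 stayed within the SD of the bins, 8 moved and 1 reversed. Setting the strains to equal totals or equal background shifted log2 ratios by 0.058 or -0.034. The alternatives without the windows over and beside the Ty element, and with only bins left of HMRA2, were chosen after seeing the data.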

Other observations

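With the 95th percentile as threshold, lower peaks were added in each strain. In rif1Δ these lay between LEU2 and NFS1 (highest bin 12.75), over RBK1 (12.5), BUD5 (13.4) and TUP1 (10.25) and left of HMRA2 (14.9), and in WT over PAT1, which encodes an mRNA decapping factor (12.9), over YCL042W (12.5), between LEU2 and NFS1 (8.75) and at ARS316 (11.75). WT values over PAT1 averaged 6.35 and rif1Δ values 4.54.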
